A study of Mus musculus with 9 samples.

Results

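Transcript levels of 8 enzymes that make, use or interconvert glutamate, glutamine and proline were examined in BV2 cells, an immortalized mouse microglial line, after treatment with MNPs@SiO2(RITC), which are magnetic nanoparticles coated with silica that carries the dye rhodamine B isothiocyanate. The genes were picked by symbol as enzymes of this metabolism, by a rule that uses no measured value but was set with earlier results of these data known, and all 8 were found among the 40993 genes of the table. Poly(A) RNA was sequenced in 9 libraries, in 3 groups of 3: a non-treated control, cells given 10 µg/ml MNPs@SiO2(RITC), and cells given 100 µg/ml MNPs@SiO2(RITC), with treatment lasting 12 h. All libraries came from the one cell line, and the labels do not state whether the 3 libraries of a group are separate cultures, so the p-values measure only the spread between libraries, which may be technical.

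Glutamate is the hub that links amino acid metabolism to the tricarboxylic acid cycle. Glutamine synthetase joins ammonia to glutamate, glutamate dehydrogenase and the transaminases exchange its amino group with 2-oxoglutarate, and a short pathway through pyrroline-5-carboxylate turns it into proline. In the brain glutamate is also the main excitatory transmitter, and glial cells take part in removing it and in converting it to glutamine.

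The 8 enzymes fall into 3 roles. Glud1 (glutamate dehydrogenase, ENSMUSG00000021794, chr14:34310727-34345144, plus strand) and Glul (glutamine synthetase, ENSMUSG00000026473, chr1:153899944-153909723, plus strand) stand at the branch between glutamate, ammonia and glutamine. Got1 (cytosolic aspartate transaminase, ENSMUSG00000025190, chr19:43499752-43524605, minus strand), Got2 (its mitochondrial counterpart, ENSMUSG00000031672, chr8:95864134-95888547, minus strand) and Gpt2 (mitochondrial alanine transaminase, ENSMUSG00000031700, chr8:85492576-85527560, plus strand) are the transaminases. Aldh18a1 (pyrroline-5-carboxylate synthase, ENSMUSG00000025007, chr19:40550257-40588463, minus strand), Pycr1 (mitochondrial pyrroline-5-carboxylate reductase, which makes proline, ENSMUSG00000025140, chr11:120635712-120643769, minus strand) and Oat (ornithine aminotransferase, ENSMUSG00000030934, chr7:132557475-132576398, minus strand) form the proline and ornithine arm. All are protein-coding genes, and coordinates are those of the table, on GRCm38.

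The sequence just before each gene's start was searched for 3 motifs of amino acid and stress control, on both strands of the 300-base RefSeq promoter window that runs from 250 bases before to 50 bases after the start. All 8 genes matched a window. TGATGNAA, the composite element that ATF4 and C/EBP factors bind at amino acid response genes, was found in 2 of the 8 windows and in 3.97% of all 32851 windows. The palindromic E-box CACGTG was found in 1 of 8, that of Aldh18a1, 59 bases before the RefSeq start, and in 7.15% of all windows. The antioxidant response core TGACNNNGC was found in 0 of 8 and in 12.4% of all windows. The matches did not overlap one another, and a match is a run of letters, not a shown binding site. The 2 genes with the ATF4 type motif, Pycr1 and Got1, are shown because only these windows of the 8 hold that motif, a choice made after the values were seen. Each stretch is 90 bases of RefSeq sequence on GRCm38.p6, printed 5′ to 3′ along the gene, with the motif in capitals. The Pycr1 stretch is chr11:120643802-120643891 on the minus strand, with the motif on the gene's own strand from 103 to 96 bases before the RefSeq start at base 120643748, which differs from the start in the table (120643769). The Got1 stretch is chr19:43524658-43524747 on the minus strand, with the motif on the opposite strand, so that it reads reversed and complemented, from 102 to 95 bases before the start, which is base 43524605 in both.
Pycr1: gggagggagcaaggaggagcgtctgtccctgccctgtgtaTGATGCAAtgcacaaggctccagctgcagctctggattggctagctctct
Got1: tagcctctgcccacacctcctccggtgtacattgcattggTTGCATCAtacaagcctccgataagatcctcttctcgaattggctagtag

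Values are FPKM (fragments per kilobase of transcript, scaled to the mapped fragments of the library), a level per transcript length that can be set side by side between genes. The depth of the libraries is not given in the table. It was estimated from the steps between low FPKM values, at 12000000 to 14200000 fragments in the control, 12900000 to 13900000 at 10 µg/ml and 12000000 to 15100000 at 100 µg/ml. Of 3045 low values used for this, 82.6% fell less than 0.25 from a whole number of fragments. A depth fixed in advance would give 50% by chance. The depth was chosen to bring these same values near whole numbers, so the 82.6% does not test it. Differences were tested with limma on log2(FPKM + 1), over the 11161 genes that averaged 1 FPKM or more, with Benjamini-Hochberg adjustment over all of them and a threshold of 0.05. A log2 fold change below is a difference on that scale, which understates the change of genes near 1 FPKM. The treated groups were compared with the same 3 control libraries, so their differences from the control are not independent of each other. In RNA pooled from many cells, fewer cells that express a gene and less of its RNA per cell cannot be told apart.

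The label microglia was checked against marker genes. Of 12 microglial markers, 10 were measured above the filter, and the summed FPKM of the list was 1278 to 1467 in control libraries, 1286 to 1373 at 10 µg/ml and 1204 to 1373 at 100 µg/ml. Cx3cr1 and P2ry12, receptors that define resting microglia, were below 1 FPKM in all 9 libraries, and Tmem119 was at 1.87 to 2.65 FPKM. All 6 astrocyte markers were below 1 FPKM in every library, with a summed level of 0.293 to 1.03 FPKM in control, 0.179 to 0.284 at 10 µg/ml and 0.0784 to 0.877 at 100 µg/ml, and with Aqp4 at 0 throughout. Of 5 neuronal markers found, 4 were at 0 in every library and the summed level reached at most 0.169 FPKM. The 6 oligodendrocyte markers summed to 11.5 to 13.3 FPKM over the 9 libraries, almost all of it Cnp, and 2 were at 0 throughout. All 10 microglial markers tested lay below the control at 100 µg/ml, as did 5624 of all 11161 genes tested. The part of the markers' shift in the results below was not tested.

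None of the 8 enzymes passed the threshold in any of the 3 comparisons. The lowest levels at 100 µg/ml, relative to the control, were in the proline arm and in alanine transaminase. Pycr1 averaged 0.677 ± 0.289 FPKM (SD, n = 3) against 1.53 ± 0.178 in control, Gpt2 averaged 12.6 ± 0.494 against 15.9 ± 1.83, and Aldh18a1 averaged 64.5 ± 4.27 against 75.3 ± 7.08. Glud1, Glul, Got1 and Oat had overlapping libraries in every comparison.

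At 100 µg/ml against the control, 0 of 8 had an adjusted p under 0.05, where 2.11% of all genes tested did. At an unadjusted p under 0.05 there were 3 of 8, Pycr1, Gpt2 and Aldh18a1, all lower, where 9.69% of all genes were lower by that rule and 19.4% were past it in either direction. For 4 of 8 (the same 3 and Got2) the libraries of the groups did not overlap, all lower, where 11.4% of all genes were separated in that direction and 23.8% in either. The median log2 fold change of the 8 was -0.07, beside -0.0016 over all genes tested. Pycr1 is in these counts only because its levels in control and at 10 µg/ml brought its mean over the 9 libraries to 1.09 FPKM, just over the filter.

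**Figure D1:**
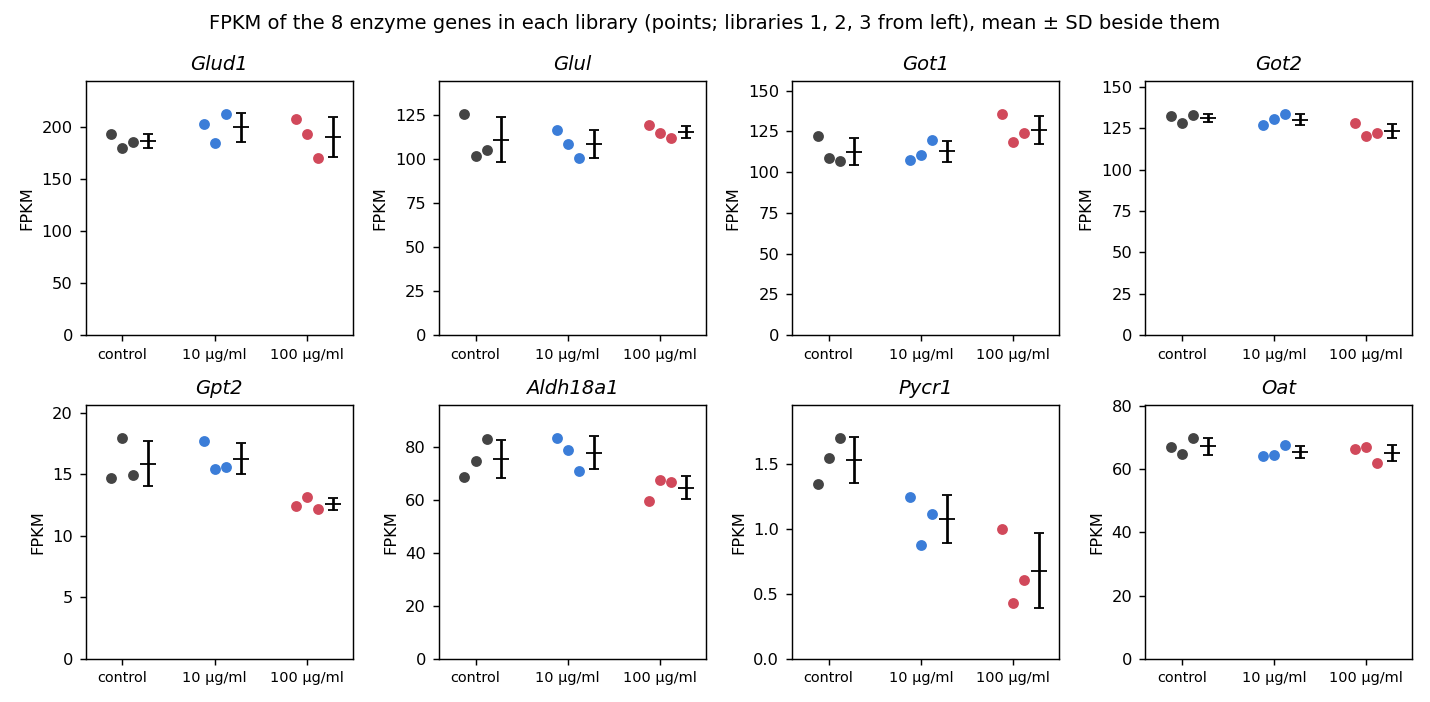
FPKM (vertical axis, from 0) of each of the 8 enzyme genes in the 3 control, 3 10 µg/ml and 3 100 µg/ml libraries (points), with the group mean ± SD beside them. The 100 µg/ml points of Gpt2, Aldh18a1, Pycr1 and, narrowly, Got2 lie below all control points, and those of Glud1, Glul, Got1 and Oat overlap the control.

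In control cells the levels ran from Glud1 at 186 ± 6.70 FPKM down through Got2 (131 ± 2.53), Got1 (113 ± 8.47), Glul (111 ± 12.7), Aldh18a1 (75.3 ± 7.08), Oat (67.2 ± 2.60) and Gpt2 (15.9 ± 1.83) to Pycr1 (1.53 ± 0.178; SD, n = 3 each). The neighbours Got1 and Glul overlapped, as did Aldh18a1 and Oat, and the other neighbours did not. The place of Got2 in this order is uncertain in each group. Its near-identical pseudogene Got2-ps1 was listed at 128 to 156 FPKM over the 9 libraries, and reads may be divided between the copies. At 10 µg/ml the same order of means held and Got1 and Glul were the overlapping pair. At 100 µg/ml Got1 averaged 126 FPKM and Got2 124, and these overlapped, as did Got1 with Glul and Aldh18a1 with Oat. Over all libraries, Glud1 stood above 96.6% of the genes tested and Pycr1 above 0.7%, with Gpt2 near the middle at 45.0%.

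Glutamate dehydrogenase reversibly deaminates glutamate to 2-oxoglutarate in the mitochondrion. Glud1 was at 193, 179.8 and 186 FPKM in the control libraries, at 202, 184 and 212 at 10 µg/ml, and at 208, 193 and 169 at 100 µg/ml. The 100 µg/ml libraries held values both above and below all 3 controls, and the groups overlapped in each comparison. The log2 fold change at 100 µg/ml against control was 0.025 ± 0.082 (SE), with a 95% confidence interval of -0.16 to 0.21 and a limma adjusted p of 0.90. Without the first 100 µg/ml library it was -0.04.

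Glutamine synthetase, the only enzyme that makes glutamine from glutamate in animal cells, was similar across groups. Glul was at 125, 102 and 105 FPKM in control, at 116, 108 and 101 at 10 µg/ml, and at 119, 114 and 112 at 100 µg/ml. The highest and the lowest of the 3 control libraries enclosed all but 1 of the treated ones. The log2 fold change at 100 µg/ml was 0.06 ± 0.09 (SE; 95% interval -0.13 to 0.26, limma adjusted p = 0.742). A processed pseudogene, Glns-ps1, is 96.8% identical to the Glul transcript over 1126 bases and averaged 5.31 FPKM, and the counting could divide reads between the copies. With its FPKM added to Glul the log2 fold change was 0.06 (adjusted p = 0.736).

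The aspartate transaminases move amino groups between glutamate and oxaloacetate and are both part of the malate-aspartate shuttle. Got1, the cytosolic form, was at 122, 109 and 107 FPKM in control, at 108, 111 and 119.8 at 10 µg/ml, and at 136, 118 and 124 at 100 µg/ml. The first 100 µg/ml library and the last one were above every control, and the second was below the first control, so the groups overlapped. The log2 fold change at 100 µg/ml was 0.16 ± 0.07 (SE; 95% interval -0.0084 to 0.33, limma adjusted p = 0.281).

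Got2, the mitochondrial form, was at 133, 128 and 133 FPKM in control, at 127, 130.5 and 134 at 10 µg/ml, and at 128, 120.2 and 122 at 100 µg/ml. All 3 of the 100 µg/ml libraries were below the control ones, by as little as 128.1 against 128.4 FPKM. The log2 fold change was -0.09 ± 0.05 (SE; 95% interval -0.19 to 0.016, limma adjusted p = 0.340). Its processed pseudogene Got2-ps1 (chr5:138364260-138365552) is 99.1% identical over 1293 bases and was listed at 128 to 156 FPKM, as high as the gene itself, so the level of Got2 is uncertain. The pseudogene had a log2 fold change of -0.06 (limma adjusted p = 0.725), and the sum of both had -0.08 (adjusted p = 0.507). A further copy, the noncoding Gm10874, is 98.8% identical over 1637 bases. It was listed at 5.29 to 7.73 FPKM and is not in that sum.

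Alanine transaminase turns pyruvate and glutamate into alanine and 2-oxoglutarate. Gpt2 was at 14.7, 18.0 and 14.9 FPKM in control, at 17.7, 15.5 and 15.6 at 10 µg/ml, and at 12.4, 13.1 and 12.2 at 100 µg/ml. The 3 libraries at 100 µg/ml were below all 6 others, while the 10 µg/ml libraries lay among the controls. The mean was 20.6% lower at 100 µg/ml than in control, with a log2 fold change of -0.31 ± 0.09 (SE; 95% interval -0.50 to -0.11). The limma adjusted p was 0.109, and it lay between 0.0970 and 0.272 in 19 alternative settings.

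Pyrroline-5-carboxylate synthase carries out the first committed step from glutamate toward proline and ornithine. Aldh18a1 was at 68.6, 74.6 and 82.7 FPKM in control, at 83.3, 78.7 and 70.9 at 10 µg/ml, and at 59.6, 67.3 and 66.7 at 100 µg/ml. All 3 libraries at 100 µg/ml were below the lowest control, the nearest by 67.3 against 68.6 FPKM. The mean was 14.3% lower than in control, with a log2 fold change of -0.22 ± 0.09 (SE; 95% interval -0.42 to -0.02, limma adjusted p = 0.220).

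Pyrroline-5-carboxylate reductase completes proline synthesis with NADPH or NADH. Pycr1 was at 1.34, 1.54 and 1.70 FPKM in control, at 1.24, 0.871 and 1.11 at 10 µg/ml, and at 0.994, 0.429 and 0.608 at 100 µg/ml. Every treated library was below every control library, and the first 100 µg/ml library lay within the range of the 10 µg/ml ones. These levels correspond to roughly 47.0, 61.2 and 70.3 fragments in control, 49.9, 35.3 and 41.7 at 10 µg/ml, and 43.7, 15.0 and 23.9 at 100 µg/ml, estimated from the FPKM steps and the longest transcript, so counting error is large here. Relative to the control mean, the ratio of FPKM was 0.703 in the 10 µg/ml group and 0.443 in the 100 µg/ml group. At 100 µg/ml the log2 fold change was -0.60 ± 0.16 (SE; 95% interval -0.96 to -0.25), and the limma adjusted p was 0.0868. Without the first 100 µg/ml library the log2 fold change was -0.74 and the adjusted p 0.0312, the lowest of 18 alternatives, whose adjusted p ran up to 0.215.

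Ornithine aminotransferase links ornithine to glutamate and proline through the same intermediate. Oat was at 67.0, 64.6 and 69.8 FPKM in control, at 64.2, 64.5 and 67.6 at 10 µg/ml, and at 66.2, 66.8 and 62.0 at 100 µg/ml. The groups overlapped throughout, and the log2 fold change at 100 µg/ml was -0.05 ± 0.05 (SE; 95% interval -0.17 to 0.07, limma adjusted p = 0.678).

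At 10 µg/ml against the control, 0 of 8 enzymes passed, and 0.0% of all genes tested did. The count of all genes with an unadjusted p under 0.05 was 366, or 3.28%, and it held 0 of the 8. Pycr1 alone of the 8 had libraries that did not overlap, all lower, where 4.61% of all genes were separated in that direction and 10.7% in either. Its log2 fold change was -0.29 ± 0.16 (SE; 95% interval -0.64 to 0.07). The other 7 enzymes had log2 fold changes between -0.04 (Oat) and 0.10 (Glud1), and the median of the 8 was -0.0037 beside 0.0002 for all genes tested.

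At 100 µg/ml against 10 µg/ml, 0 of 8 enzymes passed the threshold, where 0.851% of all genes tested did. Gpt2 and Aldh18a1 had an unadjusted p under 0.05 and libraries that did not overlap, both lower, where 7.8% of all genes were lower at that p and 9.99% were separated in that direction. Gpt2 was 22.6% lower in mean FPKM (log2 fold change -0.34 ± 0.09 SE, limma adjusted p = 0.127). Aldh18a1 was 16.9% lower (log2 fold change -0.26 ± 0.09 SE, limma adjusted p = 0.224). For Pycr1 the difference was -0.32 ± 0.16 (SE), with overlapping libraries and a limma adjusted p of 0.407. The median of the 8 was -0.07, beside 0.0001 over all genes tested.

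**Figure D2:**
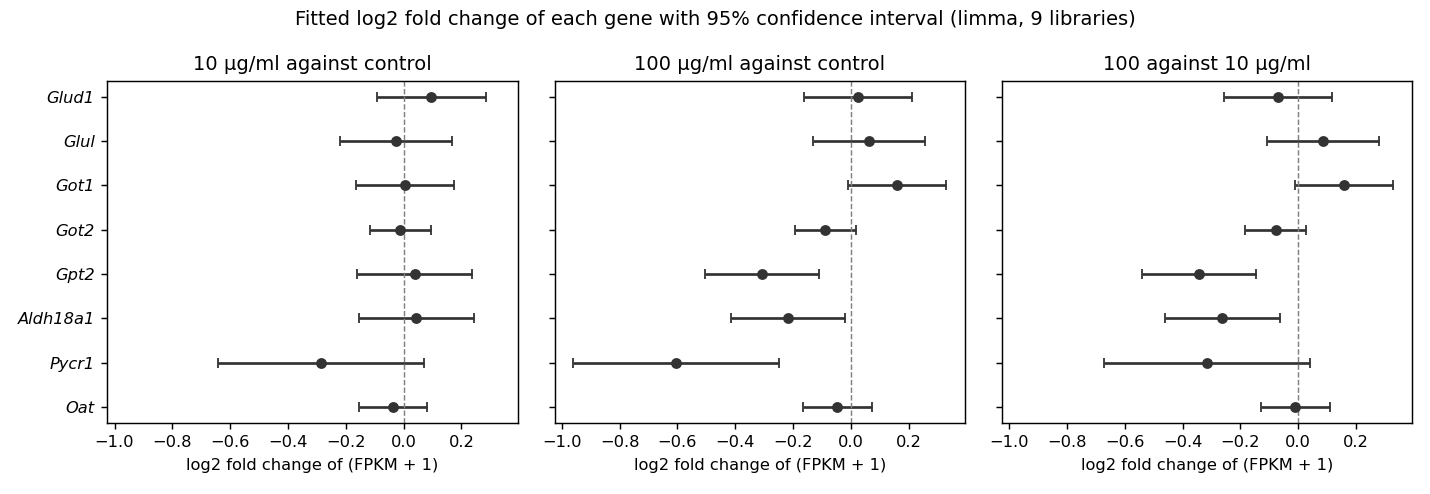
Log2 fold change of FPKM + 1 (horizontal axis) for each of the 8 enzyme genes, from limma, with its 95% confidence interval as a bar, in the 3 comparisons. At 100 µg/ml against control the intervals of Gpt2 (-0.50 to -0.11), Aldh18a1 and Pycr1 lie below 0 before adjustment, and at 10 µg/ml all 8 intervals include 0.

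Some of the enzymes have a partner that carries out the same reaction. Pycrl (also called Pycr3), another pyrroline-5-carboxylate reductase, was at 26.0, 28.4 and 25.4 FPKM in control and at 29.2, 23.3 and 21.8 at 100 µg/ml, with overlap (limma adjusted p = 0.647). In every library it stood above Pycr1. The balance of the alanine and the aspartate transaminase pairs is described per library and no p-value is given, since these pairings were set up after levels had been seen.

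The share of Gpt2 in the sum of both alanine transaminases, with the mainly cytosolic Gpt, was 27.2 ± 3.30% in control, 27.1 ± 1.52% at 10 µg/ml and 23.0 ± 1.56% at 100 µg/ml (SD, n = 3 each). The 100 µg/ml libraries, at 21.2, 23.6 and 24.2%, were below all the others, while Gpt itself was at 43.5, 39.99 and 44.0 FPKM in control and at 46.1, 42.6 and 38.3 at 100 µg/ml. The cytosolic share of aspartate transaminase, Got1 in the sum of Got1 and Got2, was 46.1 ± 1.74% in control, 46.4 ± 0.791% at 10 µg/ml and 50.5 ± 0.897% at 100 µg/ml. The 100 µg/ml libraries, at 51.4, 49.6 and 50.3%, were above all the others, with the limit on Got2 from its pseudogene.

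**Figure D3:**
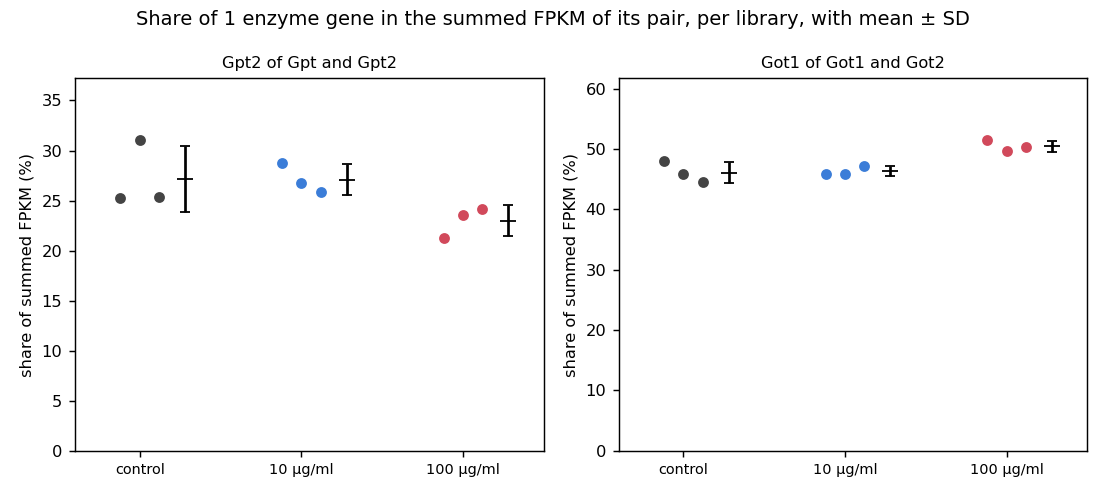
Share (%, from 0) of Gpt2 in alanine transaminase (Gpt plus Gpt2) and of Got1 in aspartate transaminase (Got1 plus Got2), as summed FPKM per library (points), with the group mean ± SD. The 100 µg/ml points lie below the control for Gpt2 and above it for Got1. The level of Got2, and so the Got1 share, is uncertain because of the pseudogene Got2-ps1.

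Beyond the 8 enzymes, 64 further genes of this metabolism were listed in 7 groups, and 40 passed the filter. At 100 µg/ml against the control 1 of the 40 passed the threshold, Bcat1, and 7 were higher and 9 lower at an unadjusted p under 0.05, beside 9.67% and 9.69% of all genes tested. The median log2 fold change of the 40 was -0.0068. At 10 µg/ml 0 of 40 passed, and at 100 against 10 µg/ml 1 did, again Bcat1.

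Bcat1, the cytosolic transaminase that passes the amino group of leucine, isoleucine and valine to 2-oxoglutarate and so makes glutamate, fell at 100 µg/ml. It was at 61.9, 63.0 and 66.7 FPKM in control, at 63.6, 64.9 and 62.8 at 10 µg/ml, and at 48.5, 47.3 and 48.2 at 100 µg/ml. The 3 libraries at 100 µg/ml lay close together and below all 6 others. The mean was 24.9% lower than in control (log2 fold change -0.40 ± 0.05 SE, limma adjusted p = 0.0064, between 0.00537 and 0.0574 in 19 alternatives, of which 18 kept the call and the fit of these 6 libraries alone did not). Against 10 µg/ml the log2 fold change was also -0.40 (limma adjusted p = 0.0113). That second call was lost without the first or second 10 µg/ml library or the last 100 µg/ml library, with adjusted p of 0.0654, 0.0609 and 0.0535. It was also lost with the replicate number as a block, at 0.0516, and in the fit of the 6 libraries compared alone, at 0.0727. The range over 19 alternatives was 0.0103 to 0.0727.

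Bcat1 is 1 of 5 measured genes in a list of further transaminases. All 5 had lower libraries at 100 µg/ml that did not overlap the control, where 11.4% of all genes tested were separated in that direction and 23.8% in either, and besides Bcat1 none passed the limma threshold. Their median log2 fold change was -0.22. Outside that list, the transaminases Got1 (0.16), Gpt (-0.0087) and Oat (-0.05) overlapped the control. Gpt2 (-0.31) and, narrowly, Got2 (-0.09) were lower without overlap. Psat1 makes phosphoserine in serine synthesis, with glutamate as the amino donor. It was at 348, 353 and 353 FPKM in control and 330.4, 317 and 305 at 100 µg/ml (log2 fold change -0.15, adjusted p = 0.134). Bcat2, the mitochondrial branched-chain transaminase, was at 45.7, 46.5 and 42.4 and at 41.6, 35.7 and 37.7 FPKM (-0.22, adjusted p = 0.109). The kynurenine transaminases Ccbl1 and Ccbl2 had log2 fold changes of -0.53 (adjusted p = 0.0615) and -0.22 (adjusted p = 0.173), Ccbl1 at only 1.54 to 1.96 FPKM in control and 0.784 to 0.958 at 100 µg/ml. Like Pycr1, Ccbl1 passed the filter, with a mean of 1.32 FPKM over the 9 libraries, only through its control and 10 µg/ml levels. Without the first 100 µg/ml library Bcat2, Psat1 and Ccbl1 also passed, with adjusted p of 0.0283, 0.0391 and 0.0493, where their ranges over all alternatives ran up to 0.291, 0.334 and 0.173.

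Glutathione is made from glutamate, cysteine and glycine. The 4 measured genes of glutathione metabolism, of which Gclc, Gclm and Gss serve its synthesis and Ggct the breakdown of gamma-glutamyl compounds, had log2 fold changes above 0 with a median of 0.14, and 0 of 4 passed. Of all 11161 genes tested, 5519 lay above 0. Gss (0.08) and Ggct (0.06) overlapped the control, and Ggct was at -0.06 without the last 100 µg/ml library. Gclc, the catalytic subunit of the rate-limiting ligase, was at 28.5, 29.8 and 29.8 FPKM in control, at 31.9, 32.5 and 33.7 at 10 µg/ml and at 34.2, 33.3 and 33.8 at 100 µg/ml, so that every treated library was above every control one (100 µg/ml log2 fold change 0.19, limma adjusted p = 0.0723). Of all genes tested, 12.5% were separated upward from the control at 100 µg/ml and 6.14% at 10 µg/ml. Its modifier subunit Gclm was at 61.9, 59.8 and 64.7 FPKM in control and 79.7, 70.9 and 66.8 at 100 µg/ml (0.21, adjusted p = 0.170). Slc7a11, the exchanger that exports glutamate for cystine, was at 12.6, 12.8 and 14.5 FPKM in control and 7.90, 10.2 and 13.0 at 100 µg/ml, with overlap (-0.35, adjusted p = 0.235).

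Of 4 measured neighbours of proline and ornithine, 0 passed, and for 3 the 100 µg/ml libraries did not overlap the control, where 23.8% of all genes tested did not. Odc1, which decarboxylates ornithine to putrescine, was at 217, 224 and 230.1 FPKM in control and 295, 252 and 274 at 100 µg/ml (log2 fold change 0.29, limma adjusted p = 0.0646). Arg1, arginase, which releases ornithine from arginine, was at 5.41, 3.68 and 3.74 FPKM in control and 2.62, 1.68 and 3.18 at 100 µg/ml (-0.60, adjusted p = 0.202). P4ha1, a subunit of the enzyme that hydroxylates proline in collagen, was the other separated gene, at 49.5, 47.8 and 49.0 FPKM in control and 46.0, 44.4 and 46.4 at 100 µg/ml (-0.10, adjusted p = 0.299). For the catabolic side, Prodh, which oxidizes proline, was listed at 0.0649 to 0.266 FPKM in the 9 libraries and was not tested, and Aldh4a1, which completes that oxidation to glutamate, lay between 6.64 and 7.76 FPKM (log2 fold change 0.0083 for 100 µg/ml against control, adjusted p = 0.960).

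The remaining groups had 0 genes past the threshold. Of 9 glutamine amidotransferases measured, 3 were higher and 2 lower at an unadjusted p under 0.05, beside 9.67% and 9.69% of all genes tested, and Asns, asparagine synthetase, had a log2 fold change of -0.14 (limma adjusted p = 0.208). Of 7 transporters measured, 6 lay below 0, and 0 of 7 were separated from the control. Of all 11161 genes tested, 5519 lay above 0 and 5624 below. The glutamine carrier Slc1a5 was at 174, 171 and 165 FPKM in control and 171, 177 and 171 at 100 µg/ml (limma adjusted p = 0.846). Of 5 partners in the malate-aspartate shuttle 4 lay above 0, with a median of 0.09. Of these, 2 were separated upward from the control, beside 12.5% of all genes tested. Of 6 further glutamate and proline enzymes 3 lay above 0 and 3 below.

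**Figure D4:**
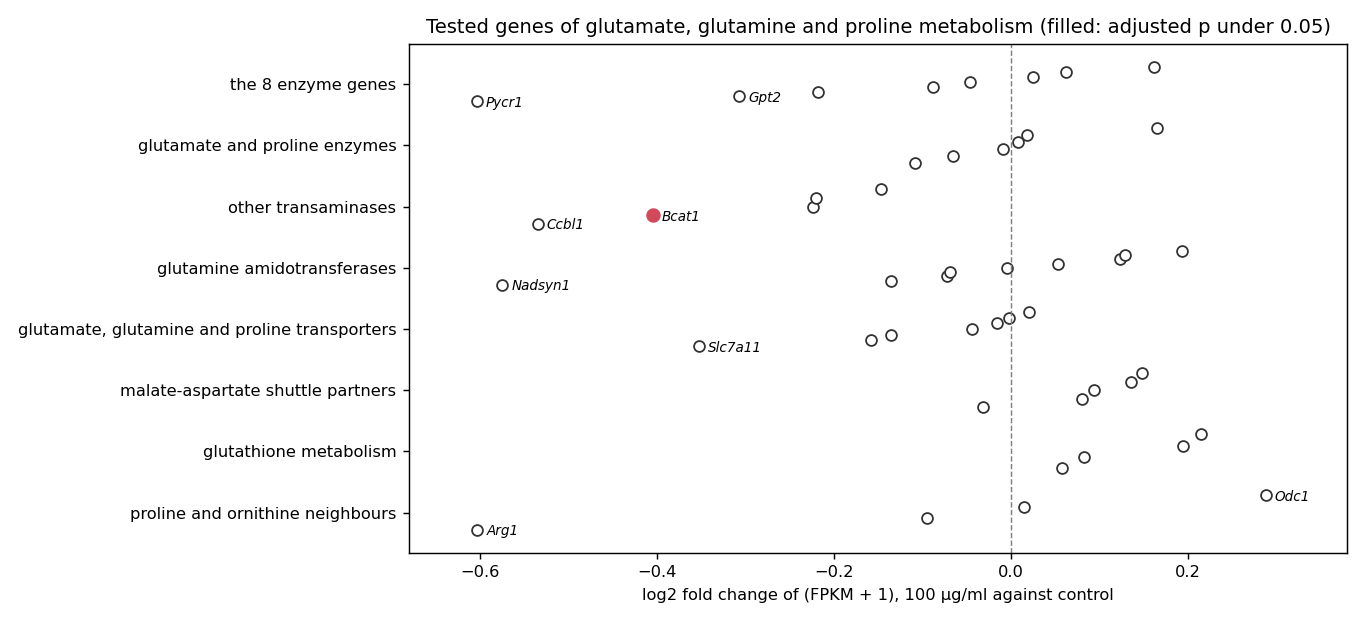
Log2 fold change of FPKM + 1 at 100 µg/ml against control (horizontal axis) for the 8 enzyme genes and the 40 measured genes of the 7 groups (1 point a gene, 1 row a group), with filled points for an adjusted p under 0.05. Bcat1 is the 1 filled point, all 5 points of the other transaminases lie below 0, all 4 of glutathione metabolism lie above it, and Got1 (0.16) is the rightmost of the 8 enzymes.

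Genes whose levels followed those of the 3 enzymes with the smallest p at 100 µg/ml were looked up among 11153 other genes, as Pearson's r of log2(FPKM + 1) over the 9 libraries, which share the treatment groups. For Pycr1 the closest were Sord, sorbitol dehydrogenase (r = 0.972, Spearman's rho = 0.983), Abtb1 (0.954, rho 0.9) and Trappc5, a subunit of a vesicle tethering complex (0.944, rho 0.967). Gpt2 was closest to Zc3h12a, an RNase that degrades inflammatory transcripts (0.969, rho 0.867), then Polk, a DNA polymerase (0.96, rho 0.967), and Flywch1 (0.949, rho 0.883). Aldh18a1 was closest to Gpr157, a G protein-coupled receptor (0.971, rho 1.0), Copg1, a coatomer subunit (0.96, rho 0.95), and the helicase Wrn (0.954, rho 0.9). With 9 libraries and so many genes compared, high values of r are found for many genes. There were 19 genes at or above 0.9 for Pycr1, 36 for Gpt2 and 60 for Aldh18a1.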

How the data were processed

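Poly(A) RNA of 9 BV2 libraries was sequenced, and the authors deposited 1 table of FPKM values per gene and library. Per the labels and methods, low-quality reads were removed, TopHat aligned the rest to GRCm38, and Cufflinks 2.1.1 estimated FPKM over the genes of Ensembl release 77, correcting for reads of many origins and for fragment bias. FPKM hold no counts, so count models were not used, and precision was judged from the spread between libraries. Columns were matched to samples by name.

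From the FPKM, limma 3.58.1 (R 4.3.3) was fitted to log2(FPKM + 1) of 11161 genes that averaged 1 FPKM or more, with the 3 groups in 1 fit, a mean-variance trend and Benjamini-Hochberg adjustment. The procedure was tested on simulated data. The changes set there were larger than those of most of the 8 enzymes, so power for small changes was not tested. Genes named are the 8 enzymes, pathway genes past the threshold and fixed homologs and partners. Gclc, Gclm, Gss, Ggct, Odc1, Arg1, P4ha1, Bcat2, Ccbl1 and Ccbl2 were added after their values were seen. The members and lists were chosen with earlier results of these data known. Near-identical copies were found with blastn 2.17.0 (at least 90% identity over 300 bases) in GENCODE transcripts. Promoters came from RefSeq. Of 64 listed genes, 63 were matched. Values of some listed genes are not reported here. Alternatives tried were 2 other pseudocounts, other filters, rescaling, quantile normalization, no trend, pairs of groups alone, a replicate block, each library left out, and, added after the data were seen, pseudogene copies summed.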

Additional observations from a re-analysis of the deposited data

How the results depend on the processing

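None of the 8 enzymes passed the threshold in any comparison under any setting tried, except Pycr1 at 100 µg/ml against control without the first 100 µg/ml library, which took the count from 0 to 1. Pycr1 had no value with a filter at 5 FPKM, since its mean is below it. The number of all genes called at 100 µg/ml against control, 236, was 22 when only the 6 libraries compared were fitted and 31 to 539 when each library was left out, lowest without the second control library and highest without the first 100 µg/ml library. At 10 µg/ml, 0 genes became 4 with no filter and 1 with 6 libraries, and 0 to 2 with a library left out. At 100 against 10 µg/ml, 95 became 6 with 6 libraries and 8 to 191 with a library left out, lowest without the first 10 µg/ml library and highest without the first 100 µg/ml one. Where a library is left out, its group has 2, and the spread is pooled over the groups.

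Of the 40 other pathway genes, 1 was called at 100 µg/ml against control. That count was 2 with a pseudocount of 0.01 (Ccbl1 added), 3 with no filter (Ccbl1 and Gclc), 2 with quantile normalization (Odc1), 2 without the trend (Ccbl1), 0 with 6 libraries, and 1 to 4 with a library left out, highest without the first 100 µg/ml library. Without the second 100 µg/ml library Odc1 was called as well, for a count of 2. At 100 against 10 µg/ml it was 0 with 6 libraries and 0 to 2 with a library left out. At 10 µg/ml against control it was 0 throughout.

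With the replicate number as a block, 106 genes were called at 100 µg/ml against control, 0 at 10 µg/ml and 13 at 100 against 10 µg/ml, and the pathway gene count at 100 against 10 µg/ml became 0, since Bcat1 no longer passed. Whether the numbers pair the libraries cannot be settled with 3 libraries a group. The correlation of same-numbered libraries' deviations from their group means was -0.088 to 0.152 in 9 pairs, with 1 over 0.1. In 18 pairs of different number it was -0.166 to 0.143, with 2 over 0.1. Of the 9 libraries, 4 correlated best with their own number. No call of the 8 enzymes changed under the block.

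Signs of differences near 0 turned with single libraries, and none of these values passed in any setting. With a library left out, Glud1 ranged from -0.0407 to 0.105 at 100 µg/ml against control and from -0.14 to 0.0087 at 100 against 10 µg/ml, where Oat ranged from -0.03 to 0.024. At 10 µg/ml against control the ranges were -0.0827 to 0.0662 for Glul, -0.0407 to 0.064 for Got1, -0.029 to 0.0078 for Got2, -0.021 to 0.13 for Gpt2 and -0.0198 to 0.113 for Aldh18a1. Got2 was also 0.0125 with quantile normalization and 0.0115 with Got2-ps1 added. Outside the 8, at 100 µg/ml against control, Aldh4a1 ranged from -0.0071 to 0.0385, Ggct from -0.0624 to 0.1884, Gpt from -0.071 to 0.0596 and Slc1a5 from -0.001 to 0.037. The causes of these changes were not tested. Precision is limited by 3 libraries a group, and for Pycr1 by few fragments.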
